A study of Homo sapiens with 70 samples.

Results

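Huh7, an established line of human hepatocellular carcinoma cells, was exposed for 24 h to 5 µM GW3965 and 2 µM sorafenib at once, and its messenger RNA was compared with that of Huh7 cells given the vehicle DMSO. The comparison comprised 17 of the 70 libraries of the study, 9 with both drugs and 8 with DMSO, and no other agent or genetic change is named for either group. It was read from the authors' deposited table of this contrast, in which 20090 of the 32321 RefSeq transcripts are marked as the representative transcript of a gene symbol, and those 20090 genes are described here. The same study treated Hep3B, a second hepatoma line, in the same way, and included groups of each line given 1 drug. The cells were grown in DMEM with fetal bovine serum, and every Huh7 library comes from that single line. Whether each library stands for its own culture is not told by the labels, and the authors' p-values therefore measure only how much these libraries vary, possibly for technical reasons. Single-library values were not analysed here: depth per library is unknown, and levels are group means in CPM (read counts scaled to a common library size), implied by the mean and the fold change of each row in the authors' deposited table.

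GW3965 is a synthetic ligand of the liver X receptors (LXR), which sense oxysterols and, with their partner RXR, raise transcription of genes that export cholesterol and of SREBF1, the regulator of fatty acid synthesis. Sorafenib inhibits RAF kinases and several growth factor receptors, and is given to patients with advanced liver cancer. Cells that run short of amino acids or load the endoplasmic reticulum (ER) with unfolded protein can start the integrated stress response, in which phosphorylated eIF2 alpha favours translation of the transcription factor ATF4. ATF4 pairs with C/EBP proteins on short composite elements near genes of amino acid uptake and synthesis, transfer RNA charging and cell death.

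A large part of the transcriptome differed between the groups. The authors' deposited table called 8361 of 20090 genes (41.6%) at an edgeR FDR under 0.05, 4891 higher with both drugs (24.3%) and 3470 lower (17.3%). Changes of 2-fold or more numbered 1278 higher (6.36%) and 596 lower (2.97%) in the authors' deposited table. Of 11491 genes with a mean of at least 2 CPM, 7085 (61.7%) were called, 4084 higher (35.5%) and 3001 lower (26.1%), by the authors' FDR. At 2-fold or more these were 758 higher (6.60%) and 341 lower (2.97%). The median log2 fold change was 0.16 over all genes and 0.07 over those with at least 2 CPM, and gene lists below are read beside these 2 medians. Members named as exceptions, or because they are well known, fall outside the rule for named genes and were chosen after their values were seen. Called genes of that level had a median absolute log2 fold change of 0.53 and a minimum of 0.16. The standard error implied by the authors' p-value was 0.107 at the median, and the share called rose with level, from 55.6% at 2 to 4 CPM to 75.5% at 256 CPM and above.

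**Figure D1:**
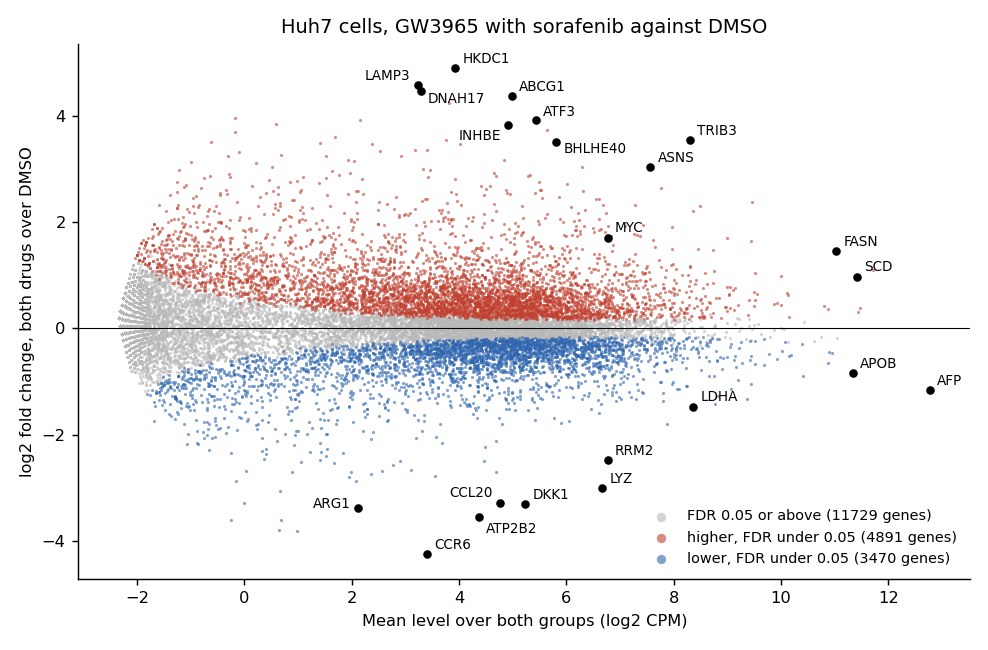
Each point is 1 of 20090 genes, with its mean level over both groups (log2 CPM) on the x axis and its log2 fold change, both drugs over DMSO, on the y axis, both from the authors' deposited table. Red genes were called higher (4891) and blue genes lower (3470) at the authors' FDR under 0.05, and the named genes include HKDC1 at 4.89 and CCR6 at -4.25.

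Among genes with a mean of at least 2 CPM, the highest changes included genes of hexose phosphorylation, the lysosome, lipid efflux and stress signalling. HKDC1 (NM_025130), a relative of the hexokinases, stood at 0.936 CPM in DMSO and 27.8 CPM with both drugs. Its log2 fold change in the authors' deposited table was 4.89, with an implied 95% interval of 4.13 to 5.65 (edgeR FDR = 6.18e-35). LAMP3, a lysosomal membrane glycoprotein, went from 0.714 to 17.1 CPM, a log2 fold change of 4.58 in the authors' deposited table. DNAH17, an axonemal dynein heavy chain, went from 0.797 to 17.7 CPM (4.47 in the authors' deposited table, implied 95% interval 3.27 to 5.67). The sterol exporter ABCG1 (NM_016818) went from 2.78 to 57.5 CPM, a change of 4.37 in the authors' deposited table, where its edgeR FDR is listed as 0. Other large rises in the authors' deposited table were those of the stress transcription factor ATF3 (3.93), the T cell costimulatory receptor TNFRSF9 (3.92), the activin subunit gene INHBE (3.82), AKNA (3.74), KLHDC7B (3.59), skeletal actin ACTA1 (3.55), the pseudokinase gene TRIB3 (3.54) and the transcriptional repressor BHLHE40 (3.50). TRIB3 stood at 47.6 CPM in DMSO and 554 CPM with both drugs. Of the genes with at least 2 CPM, 26 were called higher by 8-fold or more in the authors' deposited table and 6 lower.

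The lowest changes among genes with a mean of at least 2 CPM included secreted and surface proteins. CCR6, the receptor of the chemokine CCL20, dropped from 21.3 to 1.12 CPM, a log2 fold change of -4.25 in the authors' deposited table (implied 95% interval -4.69 to -3.82, edgeR FDR = 1.98e-79). Its ligand gene CCL20 dropped as well, from 51.6 to 5.31 CPM (-3.28 in the authors' deposited table). ATP2B2, a plasma membrane calcium pump, went from 40 to 3.42 CPM (-3.55), and DKK1, a secreted Wnt antagonist, from 71.8 to 7.24 CPM (-3.31), in the authors' deposited table. LYZ, the lysozyme gene, was at 191 CPM in DMSO and 23.7 CPM with both drugs, a change of -3.01 in the authors' deposited table. The rest of the lowest 12, by the authors' deposited table, were arginase ARG1 (-3.38), haptoglobin HP (-2.88), the ghrelin acyltransferase MBOAT4 (-2.79), EGR1 (-2.78), CNIH2 (-2.73), mannose-binding lectin MBL2 (-2.71) and carboxypeptidase B2 CPB2 (-2.71). Several of these proteins are liver products, among them ARG1, HP, MBL2 and CPB2.

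**Figure D2:**
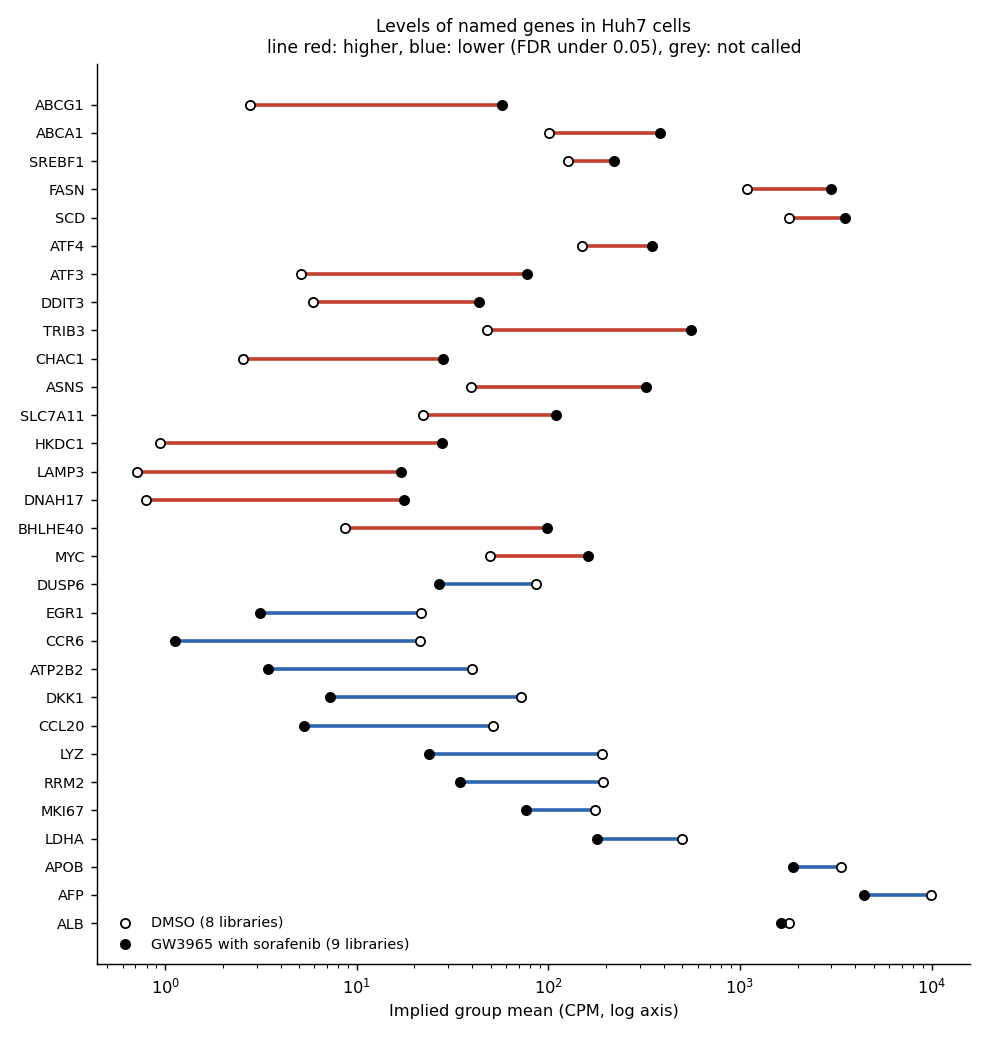
Each row is a named gene, with its implied group mean in DMSO (open circle, 8 libraries) and with GW3965 and sorafenib (filled circle, 9 libraries) in CPM on a log axis, computed from the authors' deposited table. Red lines mark genes called higher and blue lines genes called lower at the authors' FDR under 0.05, and the grey line of ALB (1809.9 CPM and 1626 CPM) marks a gene that was not called.

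Genes that LXR is known to activate were higher with both drugs. Of 21 measured LXR targets, 12 were called higher and 1 lower in the authors' deposited table, with a median log2 fold change of 0.75. After ABCG1, the largest rise belonged to ABCA1, which loads cholesterol onto apolipoprotein A-I, from 101 to 382 CPM (1.91 in the authors' deposited table, edgeR FDR = 6.50e-69). SMPDL3A (1.14), lipoprotein lipase LPL (1.10), phospholipid transfer protein PLTP (0.97) and MYLIP (0.90), a ubiquitin ligase, also rose in the authors' deposited table. SREBF1 itself went from 126 to 221 CPM (0.81 in the authors' deposited table) and APOE from 548 to 876 CPM (0.68). The member that fell was APOC2 (-0.89 in the authors' deposited table), a cofactor of lipoprotein lipase. The sterol transporter pair ABCG5 (0.18) and ABCG8 (-0.31), the receptor gene NR1H3 (0.14) and MLXIPL (0.04) did not pass the threshold in the authors' deposited table.

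More genes of fatty acid and triglyceride synthesis rose than fell. Of 21 genes of fatty acid and triglyceride synthesis, 12 were called higher and 2 lower in the authors' deposited table (median 0.36), and the list shares FASN, SCD and PNPLA3 with the LXR targets. Fatty acid synthase FASN was abundant, with 1084 CPM in DMSO and 2969 CPM with both drugs (1.45 in the authors' deposited table, implied 95% interval 1.14 to 1.76). The desaturase gene SCD went from 1810.0 to 3549 CPM (0.97 in the authors' deposited table). The largest rises of the list in the authors' deposited table were ACSS2 (2.05), which makes acetyl-CoA from acetate, and LPIN1 (2.00), a phosphatidate phosphatase. ELOVL5 (1.18), the acetyl-CoA carboxylase ACACB (1.14), malic enzyme ME1 (0.91) and the acyltransferase GPAM (0.90) followed in the authors' deposited table. ELOVL6 (-0.33) and MID1IP1 (-0.22) fell, and the desaturases FADS1 (-0.27) and FADS2 (0.00) were not called, in the authors' deposited table.

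Most genes of cholesterol synthesis and uptake rose. Of 26 measured, 18 were called higher and 0 lower in the authors' deposited table, where 8 were not called, and the median was 0.44. MVD, an enzyme of the mevalonate pathway, rose by 1.11, and lanosterol synthase LSS by 0.89, in the authors' deposited table. INSIG1, the ER anchor of SREBP processing, went from 112 to 211 CPM (0.91 in the authors' deposited table). SREBF2, which encodes the transcription factor of this pathway, rose by 0.82 in the authors' deposited table.

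Lipid use and lipoprotein genes split. Of 24 genes of fatty acid oxidation and PPARA targets, 10 were called higher and 9 lower in the authors' deposited table. The acyl-CoA synthetase ACSL1 (1.74), the coactivator PPARGC1A (1.60), carnitine palmitoyltransferase CPT1A (1.20) and the hormone FGF21 (1.89) rose in the authors' deposited table. Fatty acid binding protein FABP1 (-1.10), CPT2 (-0.61) and the trifunctional protein genes HADHA (-0.38) and HADHB (-0.29) fell in the authors' deposited table. Of 17 apolipoprotein genes, 2 were called higher, APOL1 (1.53) and APOE, and 7 lower in the authors' deposited table. APOB, the structural protein of very low density lipoprotein, went from 3373 to 1881 CPM (-0.84 in the authors' deposited table), and APOA2 from 786 to 403 CPM (-0.96). APOM (-1.25), APOH (-1.13) and APOA1 (-0.64) also fell in the authors' deposited table.

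The integrated stress response was the list with the largest median shift of the 51 described. Of 32 members, 31 were called higher and 1 lower in the authors' deposited table, at a median log2 fold change of 2.26. ATF4 went from 149.9 to 347 CPM (1.21 in the authors' deposited table) and DDIT3, the pro-apoptotic factor CHOP, from 5.94 to 43.6 CPM (2.88). CHAC1, which degrades glutathione, went from 2.56 to 28.2 CPM (3.46 in the authors' deposited table), and asparagine synthetase ASNS from 39.3 to 322 CPM (3.03). Serine and one-carbon enzymes rose too in the authors' deposited table, with ALDH1L2 (2.40), MTHFD2 (2.17), SHMT2 (1.50), PHGDH (1.20), PSAT1 (1.16) and PSPH (0.33). Hormones and secreted factors of the response included STC2 (3.04), ADM2 (2.63), GDF15 (1.98) and VEGFA (1.59) in the authors' deposited table. Regulators that act back on the pathway, PPP1R15A (2.32), which directs dephosphorylation of eIF2 alpha, and TRIB3, were among those that rose in the authors' deposited table. The member that fell was ATF5 (-0.98 in the authors' deposited table).

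Most genes of amino acid uptake and of transfer RNA charging rose too. Of 15 amino acid transporter genes, 10 were called higher and 1 lower in the authors' deposited table (median 1.00). The arginine and lysine carrier SLC7A1 went from 29.3 to 158 CPM (2.43 in the authors' deposited table). The cystine carrier SLC7A11 went from 22.2 to 109 CPM (2.29 in the authors' deposited table), and SLC3A2, the heavy chain it shares with SLC7A5, from 113 to 522 CPM (2.20). SLC38A4 fell (-1.01) and the abundant SLC38A2 was not called (0.19, edgeR FDR = 0.0559) in the authors' deposited table. Of 20 cytosolic aminoacyl-tRNA synthetases, 13 were called higher and 3 lower in the authors' deposited table (median 0.76). The alanine (AARS, 1.48), serine (SARS, 1.47), cysteine (CARS, 1.43) and glycine (GARS, 1.19) enzymes rose furthest in the authors' deposited table. Those for histidine (HARS, -0.46) and arginine (RARS, -0.23) and a phenylalanine subunit (FARSB, -0.25) fell in the authors' deposited table.

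Promoters of these genes were searched for the letters of the composite element that ATF4 and C/EBP proteins bind, TGATGNAA, where N is any base, on both strands, so that a match on the other strand reads TTNCATCA. The search covered the 250 bases upstream of each start site in RefSeq (build GRCh38.p14), and 14761 of the 20090 genes were matched to such a window. The element occurred in 3.06% of the matched genes and in 3.14% of 35116 windows. It occurred in 6 of 25 matched integrated stress response genes (24.0%), in 3 of 16 synthetases (18.8%) and in 1 of 12 transporters (8.33%). Among genes with at least 2 CPM it was found in 213 of 9406 matched (2.26%), in 29 of 606 that rose by 2-fold or more (4.79%) and in 12 of 269 that fell by 2-fold or more (4.46%). A match is a description of letters and not of binding, and these lists were chosen for their biology with earlier results known. The 10 matched sites of the 3 lists are shown because they are the letters counted here. Each is written 5′ to 3′ on the strand of its gene, with the element in capitals.
ATF3 (chr1:212565196-212565243, + strand): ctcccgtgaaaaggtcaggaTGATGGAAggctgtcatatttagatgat
CHAC1 (chr15:40953242-40953289, + strand): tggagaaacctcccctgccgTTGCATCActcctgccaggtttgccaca
ASNS (chr7:97872449-97872496, - strand): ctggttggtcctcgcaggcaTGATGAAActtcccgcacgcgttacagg
CEBPG (chr19:33374051-33374098, + strand): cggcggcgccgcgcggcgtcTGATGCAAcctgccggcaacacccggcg
FGF21 (chr19:48755450-48755497, + strand): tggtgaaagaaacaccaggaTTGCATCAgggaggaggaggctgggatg
JDP2 (chr14:75427986-75428021, + strand): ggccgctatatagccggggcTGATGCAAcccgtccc
SLC1A5 (chr19:46784884-46784931, - strand): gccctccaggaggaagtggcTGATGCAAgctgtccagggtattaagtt
AARS (chr16:70289666-70289713, - strand): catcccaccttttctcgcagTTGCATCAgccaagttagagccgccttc
GARS (chr7:30594825-30594872, + strand): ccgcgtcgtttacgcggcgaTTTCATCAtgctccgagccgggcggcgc
IARS (chr9:92293698-92293730, - strand): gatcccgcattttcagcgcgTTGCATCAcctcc
The distance from the element to the start site ran from 5 bases in IARS to 201 bases in CHAC1. The log2 fold changes of these 10 genes ran from 0.66 for SLC1A5 to 3.93 for ATF3 in the authors' deposited table.

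The same windows were searched for the sterol element bound by SREBP, TCACNCCA, on both strands. It was present in 3 of 19 matched cholesterol genes (15.8%) and in 4.00% of all matched genes. Of 28 matched lysosome and autophagy genes 3 held it (10.7%), as did 1 of 25 integrated stress response genes (4.00%). Among genes with at least 2 CPM it was found in 3.76%. The shares were 4.62% of those that rose by 2-fold or more and 2.97% of those that fell. The 3 sites of the cholesterol genes are shown to set beside the stress elements.
MVK (chr12:109573579-109573626, + strand): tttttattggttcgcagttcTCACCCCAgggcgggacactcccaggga
MSMO1 (chr4:165327493-165327540, + strand): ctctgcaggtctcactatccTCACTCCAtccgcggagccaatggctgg
SREBF2 (chr22:41832952-41832999, + strand): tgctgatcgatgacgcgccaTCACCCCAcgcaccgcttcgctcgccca
MVK rose by 0.28, MSMO1 by 0.21 and SREBF2 by 0.82 in the authors' deposited table, and the stress element was in 0 of the 19 cholesterol promoters.

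**Figure D3:**
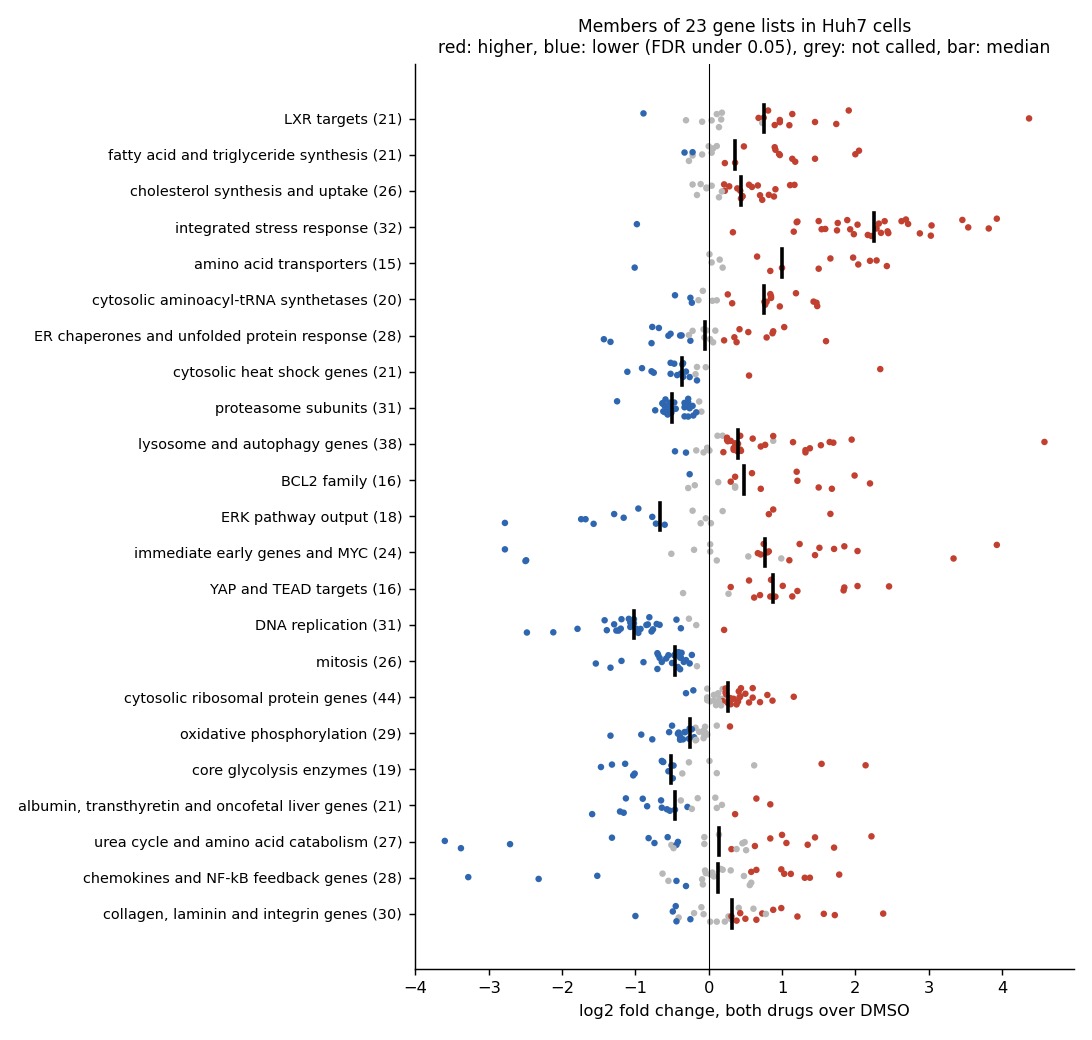
Each point is a gene of 1 of 23 lists, with the number measured in brackets, at its log2 fold change, both drugs over DMSO, in the authors' deposited table. Red points were called higher, blue points lower at the authors' FDR under 0.05 and grey points not called, and the black bars mark list medians, from 2.26 for the integrated stress response to -1.02 for DNA replication.

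Protein folding genes were divided. Of 28 genes of ER chaperones and the unfolded protein response, 10 were called higher and 10 lower in the authors' deposited table (median -0.05). Those that rose included the stress sensors ERN1 (1.60), ATF6 (0.88) and EIF2AK3 (0.79), and HERPUD1 (1.03), in the authors' deposited table. Those that fell included SDF2L1 (-1.43), CRELD2 (-1.34), PDIA4 (-0.78) and HSP90B1 (-0.52), in the authors' deposited table. Calreticulin CALR went from 1027 to 639 CPM (-0.68 in the authors' deposited table). HSPA5, the chaperone BiP, stood at 753 CPM in DMSO and 649 CPM with both drugs and was not called (-0.22, edgeR FDR = 0.309). Of 21 cytosolic heat shock genes, 2 were called higher, HSPB8 (2.34) and HSF1 (0.55), and 16 lower in the authors' deposited table (median -0.36). HSPE1 (-1.11), HSP90AA1 (-0.52) and HSPA8 (-0.43) were among those that fell in the authors' deposited table. HSPA1A (-0.91) and HSPA1B (-0.78) also fell there, but they are near-identical copies and their reads may be shared between them.

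Proteasome genes fell almost without exception and lysosome genes rose. Of 31 proteasome subunit genes, 29 were called lower and 0 higher in the authors' deposited table, with a median of -0.50. PSMD1 went from 167 to 70.4 CPM (-1.25 in the authors' deposited table), and the others called ranged from -0.73 for PSMB2 to -0.17 for PSMD7. Of 38 lysosome and autophagy genes, 28 were called higher and 2 lower in the authors' deposited table (median 0.40). The sialidase NEU1 went from 68.7 to 266 CPM (1.95) and the autophagy receptor SQSTM1 from 233 to 755 CPM (1.70) in the authors' deposited table. The folliculin partners FLCN (1.65), FNIP1 (1.32) and RRAGD (1.53), which signal amino acid supply from the lysosome, rose together in the authors' deposited table. The cholesterol carriers of the lysosome, NPC1 (1.15) and NPC2 (1.38), rose as well in the authors' deposited table. The glycosidase gene GLA (-0.46) fell there. The letters TCACGTGA of the element bound by TFEB were found in 3 of 28 matched lysosome promoters (10.7%), against 1.59% of all matched genes. Those 3 genes, LAMP1 (0.12), MCOLN1 (-0.02) and ATP6V0D1 (-0.02), were not called in the authors' deposited table.

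Antioxidant genes rose in part. Of 24 NRF2 and antioxidant targets, 14 were called higher and 5 lower in the authors' deposited table (median 0.43). SRXN1 (1.33), OSGIN1 (2.07), the glutathione ligase subunit GCLC (0.77) and thioredoxin reductase TXNRD1 (0.60) rose in the authors' deposited table. NFE2L2 (-0.73), the gene of NRF2 itself, and its targets NQO1 (-0.42) and AKR1C1 (-0.86) fell, and HMOX1 (0.05) was not called, in the authors' deposited table. The metal-binding metallothioneins and zinc carriers gave 9 called higher and 4 lower of 14 in the authors' deposited table, with MT1H (1.93), MT1G (1.23) and the zinc exporter SLC30A1 (0.71). The metallothionein genes are near-identical copies, so each of their values is uncertain. Of 19 ferroptosis and iron genes, 8 were called higher and 5 lower in the authors' deposited table. The lipid peroxidase GPX4 (0.68) rose, and ACSL4, which makes the oxidisable phospholipids, fell from 343 to 171 CPM, in the authors' deposited table.

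The immediate transcriptional output of the RAF, MEK and ERK kinases was lower. Of 18 ERK output genes, 10 were called lower and 3 higher in the authors' deposited table (median -0.66). The ERK phosphatase gene DUSP6 went from 85.7 to 26.7 CPM (-1.68 in the authors' deposited table, implied 95% interval -2.06 to -1.30). EGR1 (-2.78), the ETS factors ETV1 (-1.74), ETV4 (-0.77) and ETV5 (-0.72), and the feedback inhibitors SPRY1 (-1.57), SPRY4 (-1.29) and SPRY2 (-0.96) fell in the authors' deposited table. FOSL1 (1.66), DUSP4 (0.88) and PHLDA1 (0.82) rose there. CCND1, the cyclin D1 gene, stood at 204 CPM in DMSO and 198 CPM with both drugs and was not called (-0.04 in the authors' deposited table, edgeR FDR = 0.921).

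Other early response genes rose, MYC among them. Of 24 immediate early genes, 14 were called higher and 3 lower in the authors' deposited table (median 0.77). MYC went from 49.4 to 161 CPM, a log2 fold change of 1.71 in the authors' deposited table (implied 95% interval 1.47 to 1.94, edgeR FDR = 6.83e-44). Its relative MYCN went the other way, from 39 to 6.89 CPM (-2.50 in the authors' deposited table). KLF4 (3.34), KLF6 (2.03), JUNB (1.51) and JUN (1.45) rose and NR4A2 (-2.49) fell in the authors' deposited table. FOS, at 1.46 CPM in DMSO, was not called (-0.20 in the authors' deposited table).

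Growth factor receptors went in both directions. Of 24 receptor tyrosine kinase and RAF genes, 6 were called higher and 6 lower in the authors' deposited table. Over all genes the shares were 24.3% higher and 17.3% lower. Among the 16 of the list with a mean of at least 2 CPM, 5 were called higher and 6 lower (median 0.02). Of all genes of that level, 35.5% were called higher and 26.1% lower. Whether this list differed from all genes was not tested. AXL (2.46), EGFR (1.24), the insulin receptor INSR (1.14), IGF1R (0.85) and ERBB2 (0.68) rose in the authors' deposited table. EGFR went from 78.8 to 187 CPM, while AXL had 0.362 CPM in DMSO and 1.99 CPM with both drugs. The platelet-derived growth factor receptors PDGFRA (-1.47) and PDGFRB (-1.41), which sorafenib is known to inhibit as proteins, fell, as did ERBB3 (-0.90), FGFR3 (-0.58) and FGFR4 (-0.39), in the authors' deposited table. ARAF rose (0.37) and BRAF was not called (0.16) in the authors' deposited table. In the insulin-like growth factor list, 6 of 14 were called higher and 2 lower in the authors' deposited table, with IRS2 (1.14) and IGF2R (1.01) up and the ligand gene IGF2 (-0.46) down.

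Genes that YAP and TEAD are known to activate rose as a group. Of 16 measured, 14 were called higher and 0 lower in the authors' deposited table (median 0.88), with NUAK2 (2.03), CYR61 (1.85), ANKRD1 (1.84) and AMOTL2 (1.01). CTGF, a classical target, was not called (-0.35, edgeR FDR = 0.0877, in the authors' deposited table). Of 19 Wnt pathway targets, 8 were called higher and 3 lower in the authors' deposited table (median 0.07). Among the 15 with a mean of at least 2 CPM, 6 were called higher and 3 lower (median 0.07). Of all genes of that level, 35.5% were called higher and 26.1% lower (median 0.07). Whether the Wnt list differed from all genes was not tested. SP5 (1.01), NKD1 (0.81), NOTUM (0.75) and AXIN2 (0.69) rose and the antagonist DKK1 fell, in the authors' deposited table. LGR5 (-0.14) and TBX3 (0.07) were not called there.

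Genes of DNA synthesis and division were lower. Of 31 DNA replication genes, 28 were called lower and 1 higher in the authors' deposited table, at a median of -1.02. The ribonucleotide reductase subunit RRM2 went from 193 to 34.7 CPM (-2.48 in the authors' deposited table, implied 95% interval -2.64 to -2.31, edgeR FDR = 4.31e-259). UHRF1 (-2.12), MCM10 (-1.79), MCM6 (-1.42), the polymerase clamp PCNA (-1.29) and thymidylate synthase TYMS (-1.07) fell in the authors' deposited table, and RFC4 rose (0.21). Of 26 mitosis genes, 25 were called lower and 0 higher in the authors' deposited table, by less, with a median of -0.46. The proliferation marker MKI67 went from 174 to 76 CPM (-1.19), and the kinesins CENPE (-1.54) and KIF20A (-1.34) fell furthest in the authors' deposited table. Of 23 genes of homologous recombination and Fanconi repair, 17 were called lower and 2 higher in the authors' deposited table, with EXO1 at -1.19.

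The genes that gate entry into S phase changed unevenly. Of 21 G1 cyclins, kinases and inhibitors, 8 were called lower and 4 higher in the authors' deposited table. E2F2 (-2.07), CDK2 (-1.30), CCNE2 (-1.02) and CCNE1 (-0.96) fell in the authors' deposited table. The kinase inhibitors CDKN2B (2.07), CDKN1A (1.05) and CDKN2D (0.59) rose, and the inhibitors CDKN2C (-1.72) and CDKN2A (-0.64) fell, in the authors' deposited table. CDKN1A, the gene of p21, was low in both groups, at 1.7 CPM in DMSO and 3.5 CPM with both drugs. Of 20 p53 targets, 8 were called higher and 2 lower in the authors' deposited table (median 0.21). Among the 19 with a mean of at least 2 CPM, 8 were called higher and 2 lower (median 0.17). Of all genes of that level, 35.5% were called higher and 26.1% lower (median 0.07). Whether the p53 list differed from all genes was not tested. MDM2, a sensitive target, was not called (0.07). The p53 targets that rose included SESN2 (2.45), GADD45A (2.21) and BTG2 (1.24) in the authors' deposited table, and SESN2 is also on the stress response list.

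Most BCL2 family genes rose, among them pro-apoptotic BH3-only members. Of 16 BCL2 family genes, 10 were called higher and 1 lower in the authors' deposited table (median 0.48). Among the 11 with a mean of at least 2 CPM, 7 were called higher and 1 lower (median 0.36). BBC3 (2.20), HRK (1.99), PMAIP1 (1.68), BIK (1.50), BMF (1.20) and BCL2L11 (0.59), all BH3-only, rose in the authors' deposited table. BBC3, the gene of PUMA, went from 4.77 to 21.9 CPM. The survival gene MCL1 rose less (0.36, from 167 to 215 CPM) and BCL2L1 was not called (0.13) in the authors' deposited table. Of 19 death receptor and caspase genes, 8 were called higher and 3 lower in the authors' deposited table. The TRAIL receptors TNFRSF10B (0.83) and TNFRSF10A (0.66) rose, while the ligand TNFSF10 (-1.24) and the decoy receptor TNFRSF10D (-0.54) fell, in the authors' deposited table.

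Most glycolysis genes fell, as did most respiratory chain genes. Of 19 glycolysis enzymes, 12 were called lower and 2 higher in the authors' deposited table (median -0.51). Lactate dehydrogenase LDHA went from 496 to 179 CPM (-1.47) and pyruvate kinase, listed as PKM2, from 758 to 344 CPM (-1.14) in the authors' deposited table. PGAM1 (-1.32), TPI1 (-1.01), GAPDH (-0.51) and ENO1 (-0.48) fell, and the isoforms LDHB (1.54) and ENO2 (2.14) rose, in the authors' deposited table. The hepatic glucose transporter SLC2A2 (-1.94) fell and the mitochondrial gluconeogenic enzyme PCK2 (2.44), an ATF4 target, rose, with 7 of that list of 22 called higher and 7 lower in the authors' deposited table. Of 29 oxidative phosphorylation genes, 17 were called lower and 1 higher in the authors' deposited table (median -0.26), with ATP5G1 at -1.34 and NDUFB3 at -0.92. Of 21 hypoxia-inducible genes, 4 were called higher and 8 lower in the authors' deposited table. The 4 were DDIT4 (2.72), VEGFA, P4HA2 (0.60) and KDM3A (0.51), of which DDIT4 and VEGFA are also stress response genes. HIF1A had an implied level of 194 CPM in both groups and was not called.

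Most ribosomal protein genes rose by small amounts, and factors that assemble ribosomes were divided between lower and not called. Of 44 ribosomal protein genes, 26 were called higher and 2 lower in the authors' deposited table, at a median of 0.26, with RPL3 (0.80) and RPS6 (0.26) as examples. Of 25 ribosome biogenesis factors, 12 were called lower and 2 higher in the authors' deposited table (median -0.15), with NOLC1 (-0.52) and NCL (-0.37) down and NPM1 (0.30) up. Many ribosomal protein genes have processed pseudogenes, so their values are uncertain to the extent that reads map to such copies.

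Products of the liver cell were lower, with exceptions. Of 21 albumin, transthyretin and oncofetal genes, 12 were called lower and 3 higher in the authors' deposited table (median -0.46). Alpha-fetoprotein AFP went from 9889 to 4432 CPM (-1.16 in the authors' deposited table, implied 95% interval -1.43 to -0.89). Transthyretin TTR (-1.59), retinol binding protein RBP4 (-1.21) and PEG10 (-0.90) fell in the authors' deposited table. Albumin ALB, at 1809.9 CPM in DMSO and 1626 CPM with both drugs, was not called (-0.15 in the authors' deposited table, edgeR FDR = 0.242). The oncofetal glypican GPC3 was not called either (0.18). Of 22 hepatocyte transcription factors, 8 were called lower and 5 higher in the authors' deposited table. The bile acid receptor NR1H4 (-1.73) and CEBPA (-0.64) fell, CEBPB (1.93) and the xenobiotic receptor NR1I2 (0.98) rose, and HNF4A (0.13) was not called, in the authors' deposited table.

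Genes of secreted liver proteins went in both directions. Of 19 acute-phase genes, 8 were called lower and 4 higher in the authors' deposited table (median -0.39). Fibrinogen chains FGA (-1.33, from 965 to 385 CPM), FGG (-0.76) and FGB (-0.57), ceruloplasmin CP (-1.62) and HP fell in the authors' deposited table. SERPINA3 (1.09) and complement C3 (0.66) rose there. Of 34 coagulation and complement genes, 14 were called lower and 10 higher in the authors' deposited table, with SERPIND1 (-1.39) and F13B (-1.99) down and F7 (0.70), CFB (0.70) and C6 (1.63) up. C4A and C4B, both listed at 1.04, are near-identical copies that cannot be told apart here. Of 27 genes of the urea cycle and amino acid catabolism, 9 were called higher and 9 lower in the authors' deposited table. Argininosuccinate synthase ASS1 (1.71), CTH (2.22) and tyrosine aminotransferase TAT (1.35) rose, and CPS1 (-0.74) and the histidine-degrading HAL (-2.71) fell, in the authors' deposited table. The cytochrome P450 list had 2 called higher and 4 lower of 19 in the authors' deposited table, and the bile acid list 2 higher and 3 lower of 20.

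Chemokine and NF-kB feedback genes were called at shares near those of all genes (24.3% higher and 17.3% lower). Of 28 measured, 8 were called higher and 5 lower in the authors' deposited table. By the authors' deposited table, the chemokines CCL20, CXCL1 (-2.32) and CXCL6 (-1.52) fell. The NF-kB subunits RELB (1.78) and NFKB2 (1.12) and the inhibitors TNFAIP3 (1.03) and NFKBIA (0.58) rose there. IL8, the neutrophil chemokine, was not called (0.48 in the authors' deposited table). Of 27 interferon-stimulated genes, 10 were called higher and 4 lower in the authors' deposited table, with MX1 (1.85, from 0.939 to 3.39 CPM) and ISG15 (0.86) up and IFIT1 (-0.61) down. Among the 12 with a mean of at least 2 CPM, 5 were called higher and 3 lower. Of all genes of that level, 35.5% were called higher and 26.1% lower. Of 30 collagen, laminin and integrin genes, 12 were called higher and 5 lower in the authors' deposited table, with the laminin LAMA3 (2.38) and the integrins ITGA3 (1.57) and ITGAV (0.88, from 219 to 405 CPM) up. Among the 21 with a mean of at least 2 CPM, 10 were called higher and 5 lower. Whether the interferon or the collagen list differed from all genes was not tested. KRT19, a biliary and progenitor keratin, went from 108 to 225 CPM (1.06 in the authors' deposited table), while KRT8 (-0.25) and KRT18 (-0.21) were not called.

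Clock genes and dyneins completed the fixed lists. Of 19 clock output genes, 9 were called higher and 5 lower in the authors' deposited table. BHLHE40 went from 8.67 to 98.4 CPM, and BHLHE41 (1.59), PER3 (1.84), NR1D2 (1.25) and NFIL3 (1.00) rose, in the authors' deposited table. The output factors DBP (-0.59), HLF (-0.63) and TEF (-0.51) fell there. Of 18 dynein and cilium genes, 6 were called higher and 2 lower in the authors' deposited table, DNAH17 and DNAH5 (2.74) by far the most. FOXJ1, the master factor of motile cilia, was not called (-0.38 in the authors' deposited table).

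The markers of the labelled cell type were present in both groups. The 13 hepatocyte and hepatoma markers summed to 22262 CPM in DMSO and 13314 CPM with both drugs, with AFP and APOB making up most of the difference, and 0 were called higher and 7 lower in the authors' deposited table. In bulk RNA, fewer cells of a type and less RNA per cell cannot be told apart. Of 8 immune cell markers, summing to 196 CPM in DMSO and 30.4 CPM with both drugs, LYZ made up 191 CPM and 23.7 CPM, and PTPRC and CD3E stood below 1 CPM in both groups. The 8 fibroblast markers summed to 86.7 CPM and 76.1 CPM, and 3 of them had a mean of at least 2 CPM. Of the 8, 2 were called higher and 1 lower in the authors' deposited table, and DCN and THY1 stood at its lowest mean level (0.198 CPM over both groups). The 6 endothelial markers summed to 2.19 CPM and 1.94 CPM. The part of these markers in the results above was not tested.

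The Huh7 groups given 1 drug share the DMSO libraries with the comparison above, so their values are only set side by side and no relation between the tables is tested. Some of their values sat poorly with their labels, and whether the labels are right was not tested. Of 21 LXR targets, 7 were called higher in the authors' deposited table labelled GW3965 (median 0.28) and 11 in that labelled sorafenib (0.57). In both, 0 were called lower, and ABCG1 was called higher. Of 18 ERK output genes, 11 were called lower in the one labelled GW3965 (median -0.89) and 0 in the one labelled sorafenib (-0.01). The authors' deposited table labelled GW3965 called 4099 genes (20.4%), 1835 of them higher (9.13%) and 2264 lower (11.3%), and ABCG1 stood at 0.75 and DUSP6 at -1.70. That labelled sorafenib, also the authors' deposited table, called 411 genes (2.05%), 251 higher (1.25%) and 160 lower (0.796%), and ABCG1 stood at 3.82 and DUSP6 at -0.02. These groups are therefore named by their labels, and no effect of a single drug is read from them. FASN stood at 0.12 in the authors' deposited table labelled GW3965, 1.39 in that labelled sorafenib and 1.45 with the combination. SREBF1 stood at -0.07, 1.63 and 0.81 in the same order of the authors' deposited tables. EGR1 stood at -2.61, -0.41 and -2.78, so that its value with both drugs lay near that of the table labelled GW3965, in the authors' deposited tables.

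Most stress response genes were called higher in each of the tables of 1 drug. In that labelled GW3965 1 was called lower, and in that labelled sorafenib 0. DDIT3 was not called in the one labelled sorafenib (0.30, edgeR FDR = 0.368). TRIB3 stood at 1.27 labelled GW3965, 1.38 labelled sorafenib and 3.54 with the combination, all from the authors' deposited tables. CHAC1 stood at 2.07, 2.15 and 3.46, and ATF3 at 1.20, 0.66 and 3.93, in the same order of the authors' deposited tables. Of the 32 stress response genes, 26 were called higher in the authors' deposited table labelled GW3965, 21 in that labelled sorafenib and 31 with both. Values of further named genes follow, of which HKDC1 and DNAH17 were named for their rank with both drugs. HKDC1 stood at 1.10, 0.51 and 4.89, and DNAH17 at 0.48, 0.14 and 4.47, in that order of the authors' deposited tables. MYC stood at -0.20, 0.33 and 1.71, CDKN2B at 0.01, 0.23 and 2.07, and AFP at -0.13, -0.09 and -1.16, in the authors' deposited tables. Of the 31 replication genes, 17 were called lower in the authors' deposited table labelled GW3965, 1 in that labelled sorafenib and 28 with both, with medians of -0.43, -0.09 and -1.02. Of the 26 mitosis genes, 24, 1 and 25 were called lower in the authors' deposited tables, and of the 16 YAP targets 4, 0 and 14 were called higher.

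**Figure D4:**
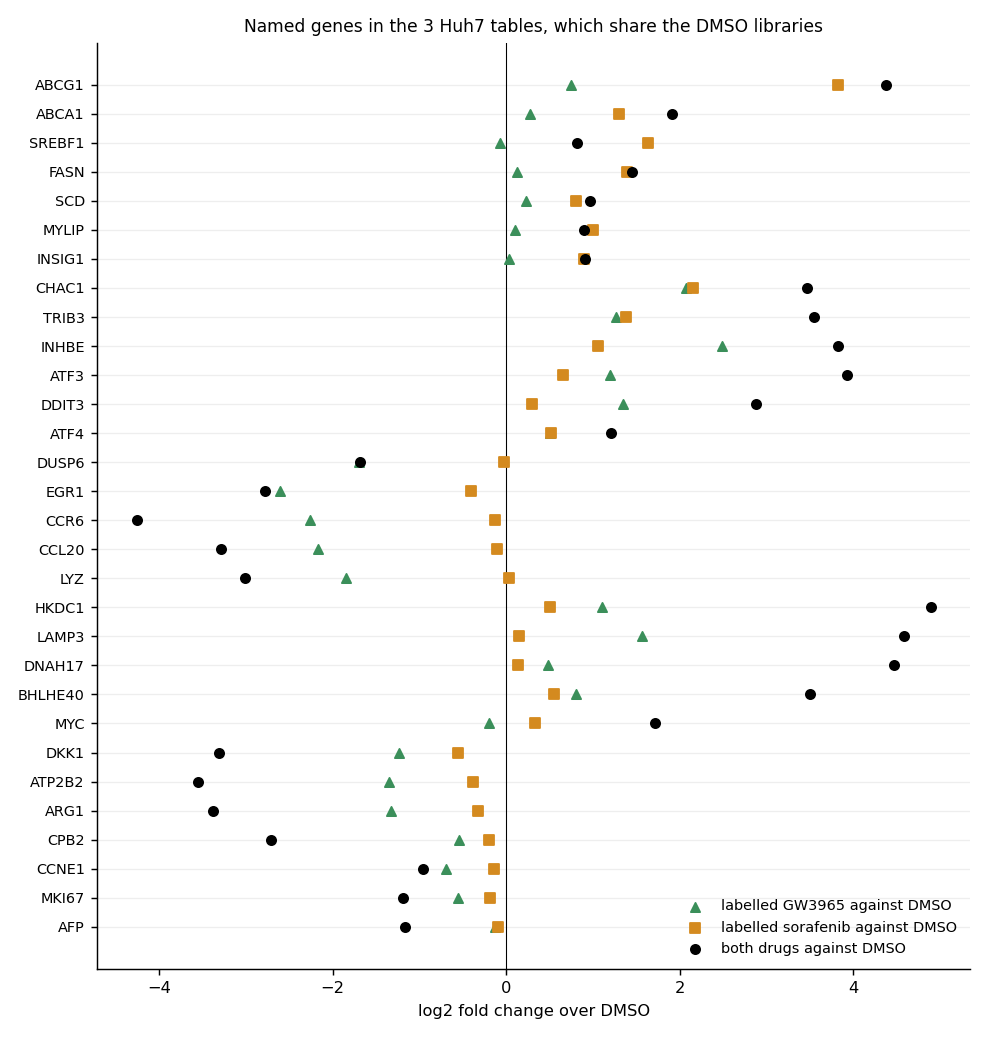
Each row is a named gene, and the x axis gives its log2 fold change over DMSO in the authors' deposited tables labelled GW3965 (triangle), labelled sorafenib (square) and of both drugs (circle), which share the 8 DMSO libraries. The circle of ABCG1 (4.37) lies near its square (3.82), that of DUSP6 (-1.68) near its triangle (-1.70), and that of HKDC1 (4.89) beyond both.

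Hep3B cells given both drugs, in 9 libraries against 9 with DMSO, offered a comparison with no shared samples. The authors' deposited table for Hep3B called 9962 of 20090 genes (49.6%). Of the genes called in Huh7, 6043 were also called in Hep3B in the authors' deposited tables, which is 72.3% of the Huh7 calls and 60.7% of the Hep3B calls. Among these, 5359 had the same direction (64.1% of the Huh7 calls and 53.8% of the Hep3B calls) and 684 the opposite one (8.18% and 6.87%). Across the 11511 genes with a mean of at least 2 CPM over both tables, Pearson's r of the 2 fold changes was 0.67 and Spearman's rho 0.63. Genes are not independent replicates, and these values only describe the 2 tables.

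The difference between the lines was tested gene by gene with an approximate normal test on the standard errors implied by the authors' p-values. At an adjusted p under 0.05, 5060 of 11511 genes (44.0%) differed, 3022 with a higher change in Huh7 (26.3%) and 2038 with a lower one (17.7%), of which 583 and 296 differed by 2-fold or more. The median difference was 0.05. DNAH17 had the log2 fold change 4.47 in Huh7 and 0.35 in Hep3B, a difference of 4.12 (approximate test, adjusted p = 2.21e-09, 95% interval 2.87 to 5.38). BHLHE40 also rose more in Huh7, by 2.59 (adjusted p = 5.72e-60, approximate normal test). ABCG1 rose less in Huh7, with 4.37 against 6.46 (difference -2.09, adjusted p = 7.29e-57, approximate normal test), and KLHDC7B did too (difference -3.11). The difference was not called for HKDC1 (0.46, 95% interval -0.32 to 1.23), CHAC1 (0.00, -0.28 to 0.29) or DDIT3 (0.13, -0.23 to 0.48).

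Several gene groups differed between the lines in 1 direction. Of 27 ER chaperone and unfolded protein response genes tested, 21 had a lower change in Huh7 and 0 a higher one, at a median difference of -0.67. HSPA5 stood at -0.22 in Huh7 and 1.00 in Hep3B in the authors' deposited tables (difference -1.22, adjusted p = 1.63e-09, approximate normal test). SDF2L1 (-1.96) and HERPUD1 (-1.38) differed in the same way. Of 26 cholesterol genes, 18 had a higher change in Huh7 and 0 a lower one (median difference 0.55). LSS was at 0.89 in Huh7 and -1.32 in Hep3B in the authors' deposited tables, and MVD at 1.11 and -0.44. FASN rose by 1.45 in Huh7 and 0.39 in Hep3B in the authors' deposited tables (difference 1.07, adjusted p = 3.61e-05, approximate normal test), while the difference for SCD was not called (-0.02, 95% interval -0.32 to 0.27).

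Other lists varied in how their members differed between the lines. Of 18 chemokine and NF-kB genes tested, 16 had a higher change in Huh7 and 1 a lower one (median difference 1.17), with CXCL1 at -2.32 in Huh7 and -4.54 in Hep3B in the authors' deposited tables. Of 23 collagen, laminin and integrin genes, 16 had a higher change in Huh7 and 0 a lower one, and ITGAV stood at 0.88 and -1.15, called in opposite directions in the authors' deposited tables. Of 11 BCL2 family genes, 8 had a higher change in Huh7 and 0 a lower one, among them BMF (1.53) and MCL1 (0.43). CCND1 was at -0.04 in Huh7 and -1.07 in Hep3B in the authors' deposited tables (difference 1.02, adjusted p = 1.07e-12, approximate normal test), and CCNE1 at -0.96 and -2.84. Among metallothionein and zinc genes 8 of 12 had a lower change in Huh7, with MT2A at 0.23 and 4.06 in the authors' deposited tables. ERK output genes had a higher change in Huh7 in 6 of 16 cases and a lower one in 0, YAP targets in 7 and 1 of 15, and immediate early genes in 7 and 3 of 20. Acute-phase genes went the other way, with 2 higher and 6 lower of 11, and keratins had 2 higher and 2 lower of 6. Proteasome genes differed in 1 of 30 cases and ribosomal protein genes in 1 of 44.

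**Figure D5:**
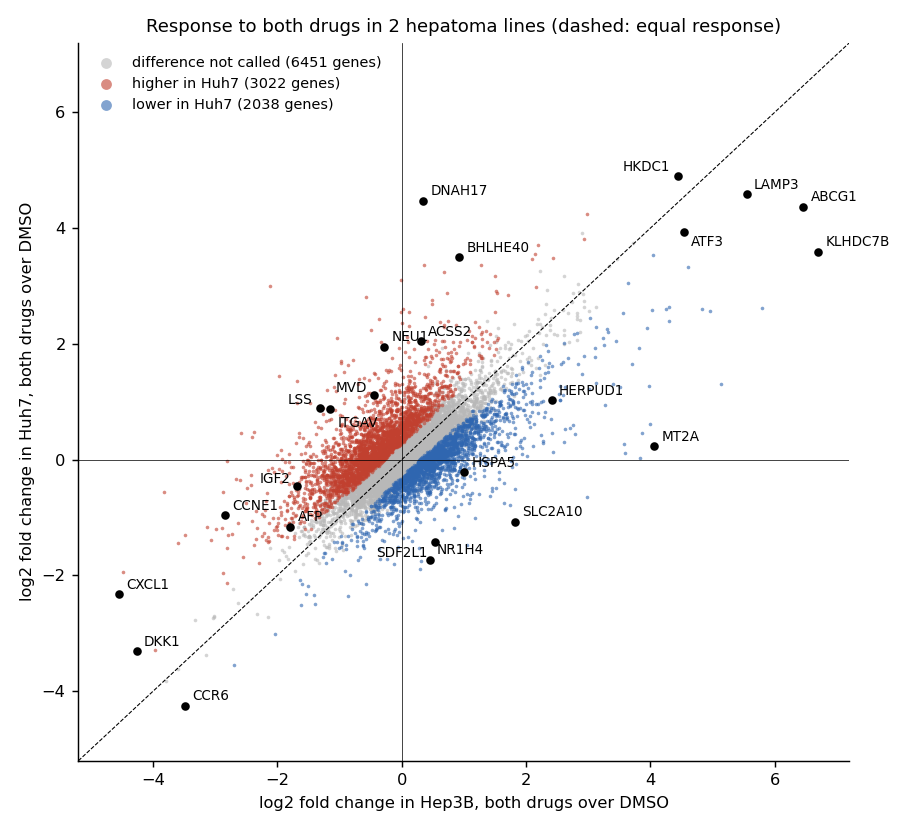
Each point is 1 of 11511 genes with a mean of at least 2 CPM, at its log2 fold change with both drugs in Hep3B (x axis) and in Huh7 (y axis), from the authors' deposited tables, and the dashed line marks an equal response. Red genes (3022) had a higher and blue genes (2038) a lower change in Huh7 by the approximate test, with DNAH17 (4.12) far above the line and MT2A (-3.83) far below it.

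Few genes had transcripts called in opposite directions. Of 6541 genes with more than 1 transcript, 3116 had at least 2 called and 6 had transcripts called in opposite directions in the authors' deposited table, of which 4 had every such transcript at 2 CPM or more. In LCORL, NM_153686 went from 45.3 to 29.8 CPM (log2 fold change -0.60) and NM_001166139 from 18.4 to 27.7 CPM (0.59), in the authors' deposited table. In THAP3, the representative transcript fell (-0.26) and 2 others rose (0.46 each) in the authors' deposited table. In DEF8, NM_017702 fell (-0.44) and the representative transcript rose (0.26), and RPAIN had transcripts from -0.32 to 0.37, in the authors' deposited table. Transcripts of a gene share exons, so the values of single transcripts depend on how reads were assigned. Some were near-equal in level, such as those of THAP3 at 4.19 and 4.18 CPM in DMSO. Rows that share most of their reads can hardly be called in opposite directions. The low count therefore does not tell how often transcripts of a gene were regulated apart.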

How the data were processed

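Poly-A RNA of Huh7 and Hep3B cells was sequenced in 70 libraries. The authors deposited 6 comparison tables with, per transcript, the mean log2 CPM, the log2 fold change, the p-value and its FDR, as named per the file headers. Per the submitters' processing notes, edgeR and the build hg19 (GRCh37) were used; an aligner, a counter and tool versions were not given in the sources used here. Rows marked as representative were kept, 1 per gene symbol. From them group levels in CPM were implied from mean and fold change, weighted by 8 and 9 libraries, and standard errors from the p-value, replaced by the median of 1 of 20 expression bins where p exceeded 0.5 and held at or above it. Huh7 and Hep3B were compared by an approximate normal test at a mean of at least 2 CPM with Benjamini-Hochberg adjustment. Of these steps only the test between lines was tried on simulated data (R 4.3.3, limma 3.58.1, Python 3.11.15, pandas 2.3.3, scipy 1.17.1). There the p-values came from limma and not edgeR, and far fewer genes were set to differ than were called here. The simulation therefore does not tell how the test performs on these data, and the implied group levels were not tested. No library values were analysed here, so no SD can be given and depth is unknown.

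The rule for named genes took the 12 highest and 12 lowest called genes with a mean of at least 2 CPM, 25 fixed genes, and in each of 51 lists up to 5 members of largest change and the most abundant 2. The members and lists were chosen with earlier results of these data known. Some genes the rule takes, 1 of the 12 highest among them, are not reported here. Promoters were read from RefSeq (GRCh38.p14). Alternatives were a stricter FDR, all transcripts, a minimum level, centring and other error settings.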

Additional observations from a re-analysis of the deposited data

Results flagged for a closer look

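Of 23 genes fixed for naming, 12 had a change in Huh7 that differed from that in Hep3B by the approximate normal test on implied errors, at an adjusted p under 0.05 over 11511 genes. In 8 of them the log2 fold change was higher in Huh7. The differences, Huh7 minus Hep3B, were 1.89 for the cyclin gene CCNE1, 1.07 for FASN, 1.02 for CCND1, 0.87 for DUSP6, 0.63 for AFP, 0.56 for INSIG1, 0.43 for MCL1 and 0.39 for ABCA1. In 4 the change was lower in Huh7, with differences of -2.09 for ABCG1, -0.88 for TXNIP, -0.50 for TRIB3 and -0.49 for SREBF1. The difference for TXNIP rests on the bin median error that replaced its own, since its p-value in a table exceeded 0.5. With its own error its adjusted p was 0.224, and the difference was then not called, while the other 11 were still called.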

How the results depend on the processing

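With all 32321 transcripts in place of representatives, 14304 were called, 8448 higher and 5856 lower. Restricted to 2 CPM and above, 758 genes were called higher and 341 lower at 2-fold or more, an alternative added after seeing the data. The same minimum turned the list median of urea cycle genes to -0.06, cytochrome P450 to -0.15 and bile acid genes from 0.11 to -0.04. Keratins turned to -0.21, immune markers to -1.10 and fibroblast markers to -0.41. That minimum moved the medians of apolipoproteins from -0.20 to -0.64, fatty acid oxidation from 0.17 to 0.04 and interferon-stimulated genes from 0.41 to 0.20. Receptor kinases also moved from 0.18 to 0.02, collagen and integrin genes from 0.32 to 0.11 and the BCL2 family from 0.48 to 0.36. Acute-phase genes moved from -0.39 to -0.60, glucose transporter and gluconeogenic genes from 0.08 to 0.30 and amino acid transporters from 1.00 to 1.25. The other counts stayed within 1.5 times of those reported: 7053 genes were called at FDR under 0.01 and 8294 with adjustment over representatives alone. The difference between lines was called for 5355 genes with no lower limit on the error, 5325 with no minimum level, 3830 at FDR under 0.01 and 4963 with own errors kept, the last pair added after seeing the data. Of 898 differences called where a p exceeded 0.5, 86 were not called with their own error. Centring gave 1133 genes higher and 690 lower at 2-fold or more, also added after seeing the data. No paired analysis was possible because the tables hold no values of single libraries, and for the same reason no replicate could be left out. Unknown depth limits what can be said of genes with low levels.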
